A study of Mus musculus with 6 samples.

Results

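Blastocysts of climacteric age were compared with blastocysts of young age on 4 of the 6 arrays of the series, 2 arrays per age. The groups were taken from the sample titles. The study asked, per its title, how reproductive decline bears on the ability of mouse oocytes to reprogram somatic nuclei. All samples were mouse material of the B6C3 F1 strain, labelled young or climacteric, climacteric being the time of reproductive decline. The other 2 arrays held ooplasts (oocytes without their nucleus), 1 young and 1 climacteric, and are used here only where a blastocyst result turns on them. How the embryos were made, their number per sample, their sex and any age in weeks are not given in the labels. The design text calls replicates biological and names no animals, so p-values measure only the spread between these samples.

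The blastocyst is the last stage before implantation. Its outer epithelium, the trophectoderm, pumps fluid into the cavity and later forms the placenta, and its inner cell mass sorts into the epiblast, which makes the embryo proper, and the primitive endoderm, which makes the yolk sac lining. Oocyte messages are degraded as the embryo's own genome takes over in the early cleavages, and the oocyte supplies the embryo's first cytoplasm and its mitochondria.

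Each value is the log2 processed signal of a probe minus the 75th percentile of its array, so 0 is the level of a fairly bright probe and a step of 1 is 2-fold. Levels of different probes cannot be ranked against each other, since probes differ in brightness. The share of the 43379 spots well above background (brighter than the local background by the scanner software's own test) was 49.9% and 52.7% on the young arrays and 57.3% and 54.9% on the climacteric arrays, higher on both climacteric arrays. Replicate 1 of both ages lay on slide 1 with both ooplast arrays, and replicate 2 of both ages on slide 2, so each slide gives its own difference by age. A gene was tested where its probe was well above background on both arrays of at least 1 age, which held for 15961 genes. Of these, 14282 were well above background on all 4 arrays and are called measured below, 1499 passed through the climacteric arrays alone and 180 through the young arrays alone.

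No single gene separated climacteric from young blastocysts in the test. None of the 15961 genes passed limma's test at an adjusted p of 0.05 (0.0%, lowest adjusted p 0.234). At an unadjusted p of 0.05 there were 858 genes (5.38%), of which 451 were higher (2.83%) and 407 lower (2.55%) in climacteric blastocysts. The median SE of a difference was 0.34 and the median 95% interval reached 0.86 to either side. The median difference over all genes was 0.01 on the log2 scale, with -0.05 on slide 1 and 0.07 on slide 2. Scaling on the probes detected on all 4 arrays moved this median to 0.15, and with it the split at an unadjusted p of 0.05 to 676 higher and 312 lower.

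The distance between ages was not consistently larger than that between replicates. Among the 14282 measured genes, 10.9% were at least 2-fold apart between the young replicates and 10.5% between the climacteric replicates. Between ages the share was 10.2% on slide 1 and 7.71% on slide 2. The crosswise pairs gave 8.77% for young replicate 1 against climacteric replicate 2 and 14.8% for climacteric replicate 1 against young replicate 2. By this share the ages were closer than either pair of replicates in all of these comparisons except that of climacteric replicate 1 with young replicate 2. Both replicate pairs lay on different slides, so their distance includes the slide, while that of the ages on 1 slide does not. The crosswise pairs, also on different slides, lay below and above the replicate pairs. Pearson's r across genes lay between 0.962 and 0.980 for the 6 pairs, which describes genes and not independent replicates.

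**Figure D1:**
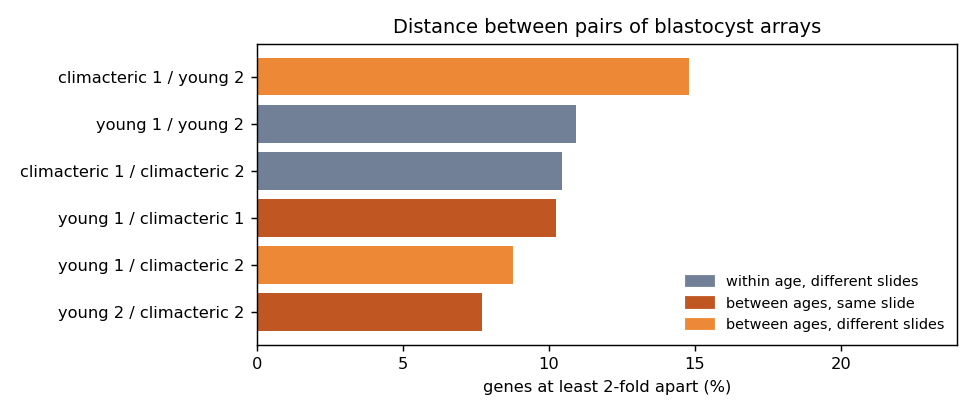
Share of the 14282 measured genes at least 2-fold apart (horizontal axis, percent) for each pair of the 4 blastocyst arrays (vertical axis). Grey bars are replicates of 1 age, which lay on different slides. Dark orange bars are ages on the same slide and light orange bars are ages on different slides. Pairs of different age span 7.71% to 14.8% and the replicate pairs are at 10.5% and 10.9%.

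The genes that define the trophectoderm had a median difference near 0. The list held 30 genes, all of them measured. None passed the test, 1 was higher and 4 were lower without overlap of the ages, and the median difference was -0.06, with -0.24 on slide 1 and 0.10 on slide 2. Across all genes 16.2% were higher and 13.8% lower without overlap (2582 and 2203 genes, or 4049 and 1238 when scaled on the detected probes). Cdx2, the homeobox factor that specifies the trophectoderm, was at 7.27 and 7.05 on the young arrays and at 6.98 and 7.17 on the climacteric arrays. Its difference was -0.09 (SE 0.29, limma adjusted p = 1), and the 95% interval of -0.82 to 0.64 left out a 2-fold change in either direction. The values of the 2 ages interleaved. In whole embryos, fewer cells of a lineage and less RNA per cell cannot be told apart.

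Krt8 and Krt18 encode the intermediate filament pair of this epithelium. Krt8 was at 8.99 and 8.83 on the young arrays and at 8.74 and 9.02 on the climacteric arrays, with a difference of -0.03 (SE 0.29, limma adjusted p = 1). Krt18 was at 9.34 and 8.96 on the young arrays and at 9.02 and 9.20 on the climacteric arrays, with a difference of -0.05 (SE 0.30, limma adjusted p = 1). In both, the values of the ages overlapped. Eomes, a T-box factor of trophoblast stem cells, was at 3.45 and 2.77 on the young arrays and at 3.37 and 2.70 on the climacteric arrays, which overlapped. Gata3, a zinc finger factor of the same lineage, differed by -0.28 (SE 0.35, limma adjusted p = 1). Tead4, the DNA-binding partner of YAP that acts upstream of Cdx2, was at 5.21 and 4.24 on the young arrays and at 4.10 and 4.71 on the climacteric arrays, again without a gap between the ages. The highest difference in the list was that of Cldn6, a tight junction claudin, at 0.93, and the lowest was that of Fgfr2, the receptor through which FGF maintains trophoblast stem cells, at -0.42. The other probes of Fgfr2 differed by 0.60 and -0.27.

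The pluripotency genes of the inner cell mass also had a median near 0. Of 26 listed, 24 were on the array and 21 were tested, all 21 measured. None passed, 1 was higher and 2 were lower without overlap, and the median difference was -0.04 (-0.05 on slide 1 and 0.06 on slide 2). Pou5f1, which encodes the OCT4 factor, had the highest difference in the list. It was at 2.46 and 2.09 on the young arrays and at 3.26 and 2.33 on the climacteric arrays, a difference of 0.52 (SE 0.41, limma adjusted p = 1) with overlapping ages. Nanog, the homeobox factor of the epiblast, was at -0.84 and 0.04 on the young arrays and at 0.27 and -0.39 on the climacteric arrays, a difference of 0.34 (SE 0.44, limma adjusted p = 1). Its replicates were farther apart than its group means. Sox2, the partner of OCT4, held within a narrow range, at -1.01 and -1.17 on the young arrays and at -1.09 and -1.16 on the climacteric arrays. Dppa4, a chromatin-associated pluripotency marker, was the lowest member with -0.50 (SE 0.32, limma adjusted p = 1).

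The primitive endoderm list had the highest median of the lineage lists. Of 23 listed genes all were on the array, 20 were tested and 18 were measured. Without overlap, 5 were higher (25%) and 2 lower (10%), against 16.2% and 13.8% of all genes, and none passed. Of the 20 tested, 18 and 20 were well above background on the young arrays and 20 and 20 on the climacteric arrays. The counts without overlap therefore follow in part from the filter, which let genes in through the climacteric arrays alone. The median difference was 0.41, with 0.12 on slide 1 and 0.31 on slide 2, and 0.31 over the 18 measured genes. It turned to -0.12 without young replicate 2 and was 0.07 without climacteric replicate 1, so it rested on those arrays.

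The factors that head this lineage did not move as a block. Gata6, the GATA factor that opposes NANOG in the inner cell mass, was at 5.99 and 5.82 on the young arrays and at 5.67 and 5.81 on the climacteric arrays, a difference of -0.17 (SE 0.28, limma adjusted p = 1), and its other probe differed by 0.04. Gata4, its later-acting relative, was at -3.20 and -2.94 on the young arrays and at -1.81 and -2.67 on the climacteric arrays, a difference of 0.83 (SE 0.39, limma adjusted p = 1). Its climacteric values lay above both young values, on a probe well above background on both climacteric arrays but on only 1 young array. Sox17, an endoderm factor, was at 3.93 and 1.72 on the young arrays and at 3.80 and 2.84 on the climacteric arrays, where the young replicates spanned the climacteric pair. Pdgfra, the receptor used as a surface marker of the lineage, differed by 0.26 (SE 0.40, limma adjusted p = 1). Sox7 was at -3.92 and -0.81 on the young arrays and at 0.32 and 0.48 on the climacteric arrays, and was not well above background on every young array. Foxa2, a forkhead factor of endoderm, had the lowest difference at -0.85, with 2.16 on young replicate 1 and values below 0 on the other arrays.

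Basement membrane genes made by this lineage were included in the list. Col4a1, a collagen IV chain, was at 1.42 and 1.54 on the young arrays and at 2.32 and 1.62 on the climacteric arrays, and its other probe differed by 0.49. Col4a2, the partner chain, was at 0.57 and -0.64 on the young arrays and at 1.47 and 0.19 on the climacteric arrays, a difference of 0.86 (SE 0.61, limma adjusted p = 1). Both ages of Col4a2 overlapped, and replicate 1 was the brighter array at each age. Lamb1 and Lamc1, laminin chains, differed by -0.26 and 0.05.

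**Figure D2:**
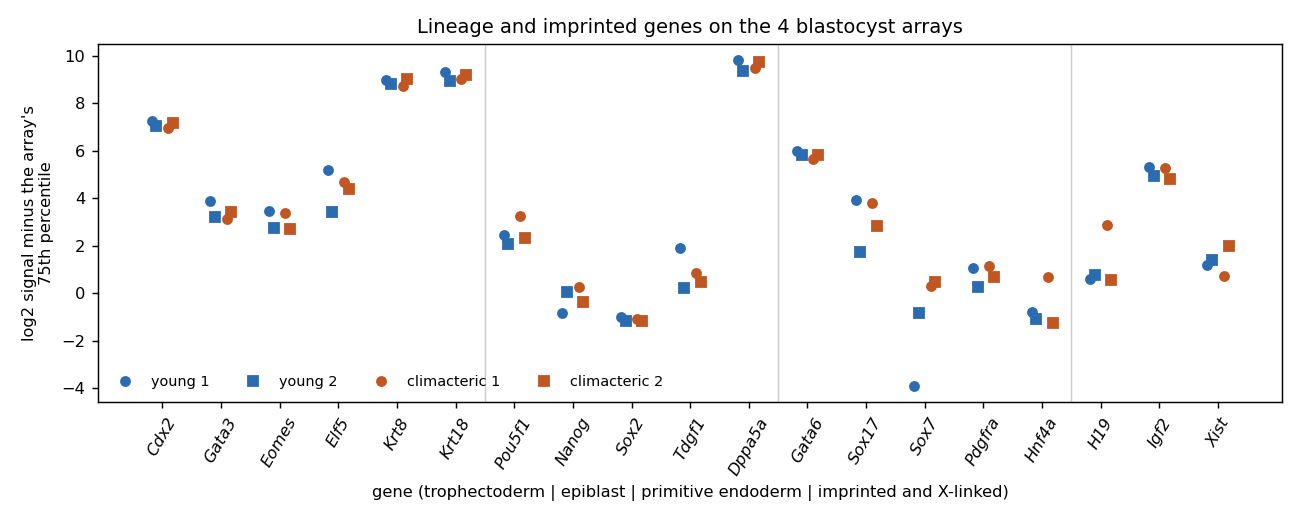
Scaled log2 signal (0 at the 75th percentile of each array, vertical axis) of 19 lineage, imprinted and X-linked genes (horizontal axis) on the 4 blastocyst arrays. Blue points are young and orange points climacteric, with circles for replicate 1 and squares for replicate 2. Cdx2, Krt8, Krt18 and Gata6 cluster tightly, while Elf5, Sox17, Sox7 and H19 spread more between replicates of 1 age than Cdx2 does.

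Imprinted genes, which are expressed from 1 parental copy, showed no shared shift. Of 32 listed, 31 were on the array, 26 were tested and 22 measured. The median difference was -0.04 (-0.14 on slide 1, -0.10 on slide 2), and 2 genes were higher and 2 lower without overlap. H19, the maternally expressed non-coding RNA, was at 0.58 and 0.77 on the young arrays and at 2.88 and 0.54 on the climacteric arrays, and climacteric replicate 1 alone stood out. Its other probe differed by 0.26. Igf2, the paternally expressed growth factor gene next to H19, was at 5.30 and 4.92 on the young arrays and at 5.28 and 4.83 on the climacteric arrays, a difference of -0.06. Mest, a paternally expressed gene, was lowest with -0.93 (SE 0.71, limma adjusted p = 1). Phlda2, a maternally expressed growth restrainer of the placenta, followed the replicate and not the age, at 4.31 and 1.82 on the young arrays and at 4.06 and 0.86 on the climacteric arrays.

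Xist, the RNA that coats the inactive X chromosome, was at 1.18 and 1.42 on the young arrays and at 0.72 and 1.97 on the climacteric arrays, a difference of 0.05 (SE 0.48, limma adjusted p = 1). Its 3 other measured probes differed by -1.07, 0.08 and -0.13. Of the Y-linked genes, none of the probes of Ddx3y, Eif2s3y and Uty was well above background on any blastocyst array. Their values ran from -6.24 to -5.32, beside a median of -6.14 to -5.46 for the negative control spots of the same arrays. Probes of Kdm5d and Zfy1 were measured, with differences of -0.48 and -0.18. Both were also well above background on both ooplast arrays. In young and climacteric ooplasts Kdm5d was at -1.10 and -1.28, and Zfy1 at 0.03 and 0.45. The source of this signal was not tested.

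Energy and protein synthesis lists had medians of opposite sign on the 2 slides, as did all genes together. The 78 cytosolic ribosome genes had a median difference of -0.27 on slide 1 and 0.29 on slide 2, and 0.00 between the group means. The 77 oxidative phosphorylation genes, which encode the respiratory chain, had -0.21 and 0.17. The 76 mitochondrial ribosome genes had -0.19 and 0.10, and the 48 translation factors and tRNA synthetases had -0.22 and 0.19. The medians of all 4 lists were below 0 on slide 1 and above 0 on slide 2. This was not particular to them. Trophectoderm (-0.24 and 0.10), cholesterol synthesis (-0.18 and 0.13) and all genes (-0.05 and 0.07) had the same signs. Of the 32 lists, 11 had the same sign on both slides. Only 5 ribosome genes were higher and 4 lower without overlap, against the 16.2% and 13.8% of all genes. Tfam, which packages mitochondrial DNA, was at 3.37 and 3.10 on the young arrays and at 3.51 and 3.87 on the climacteric arrays, a difference of 0.46 (SE 0.31, limma adjusted p = 1), and its other probe differed by -0.07.

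Metabolic and stress lists were centred near 0. Glycolysis, cholesterol synthesis, lipid storage, antioxidant, heat shock, proteasome and apoptosis genes had medians between -0.07 and 0.00, and none of their members passed. Sod1, the cytosolic superoxide dismutase, differed by 0.00 (SE 0.32, limma adjusted p = 1). Sod2, its mitochondrial counterpart, differed by -0.28 (SE 0.29, limma adjusted p = 1). Among the 43 tested genes of DNA damage and p53, 7 were higher (16.3%) and 9 lower (20.9%) without overlap, with a median of 0.03. Of all genes 16.2% were higher and 13.8% lower. Trp53 differed by 0.14 and Cdkn1a, the p21 cell cycle inhibitor that p53 induces, by 0.18. Gadd45b, a stress-response gene, was at 1.55 and 1.69 on the young arrays and at 2.53 and 2.42 on the climacteric arrays, a difference of 0.85 (SE 0.28, limma adjusted p = 0.792) on 1 probe and 0.97 on the other. Both probes were higher, and the ages did not overlap on the first.

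Cell cycle genes were close to even, with 6 higher and 5 lower without overlap of 47 tested and a median of -0.01. Mki67, a proliferation marker, was at 5.53 and 5.52 on the young arrays and at 5.28 and 5.57 on the climacteric arrays. Of 62 chromatin and DNA methylation genes 10 were higher (16.1%) and 4 lower (6.45%) without overlap, against 16.2% and 13.8% of all genes. Their median was 0.10, and it was -0.04 without climacteric replicate 1 and -0.03 without young replicate 2. Dnmt1, the maintenance DNA methyltransferase, differed by 0.25 and Dnmt3b, a de novo enzyme, by 0.16. Tubulins had medians of 0.27 on slide 1 and 0.25 on slide 2. Of 13 tested, 3 were higher without overlap (23.1%) and none lower, beside the same shares of all genes and on few members. Among genes of FGF signalling, Etv5, a transcription factor induced by the pathway, was at -1.87 and -2.15 on the young arrays and at -0.95 and -0.90 on the climacteric arrays, a difference of 1.09 (SE 0.29, limma adjusted p = 0.662). Fgf8, a ligand, was at 6.59 and 6.65 on the young arrays and at 5.77 and 5.64 on the climacteric arrays, a difference of -0.91 (SE 0.28, limma adjusted p = 0.748). Both were separated by age on each slide, in opposite directions, and the list's median was 0.00.

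Counted over all 32 lists, 11 had medians of the same sign on both slides, and so did 13 of 25 families formed by gene symbol. Olfactory receptors, the largest family, had 355 tested members of 911 on the array. Without overlap, 27.9% of those tested were higher and 8.73% lower, against 16.2% and 13.8% of all genes. However, only 273 were measured on all 4 arrays, and the median difference of these was 0.07. Of the 355 tested, 291 and 305 were well above background on the young arrays and 353 and 355 on the climacteric arrays. As with the share of all spots, both climacteric arrays were above both young arrays, although the order of the climacteric arrays differed. A gene was tested where it passed on both arrays of either age, and more genes passed through the climacteric arrays alone. The counts therefore follow in part from the filter. The part of the share of spots in the result was not tested.

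**Figure D3:**
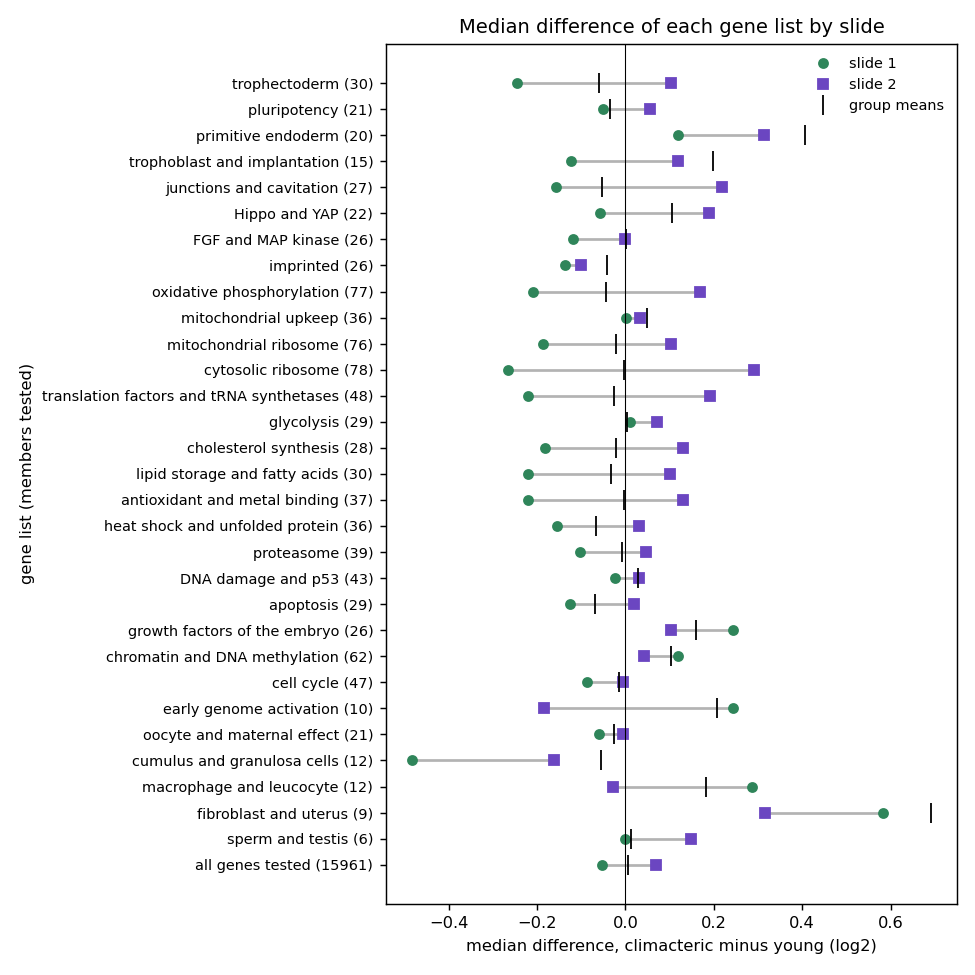
Median difference of climacteric minus young (horizontal axis, log2) for each gene list with at least 5 tested members (vertical axis, number tested in parentheses). Circles are slide 1, squares slide 2 and vertical ticks the difference of group means. Ribosome and oxidative phosphorylation medians lie on opposite sides of 0 on the 2 slides, and the primitive endoderm median is positive on both.

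More than 1 measured probe was available for 3637 genes. In 79 of them (2.17%) every measured probe was higher in climacteric blastocysts without overlap, and in 119 (3.27%) every one was lower. In 157 (4.32%) probes of the same gene were separated in opposite directions. Scaled on the detected probes, every probe was higher in 185 genes and lower in 38. Genes with known symbols, an unadjusted p below 0.05, no overlap and a second measured probe that was itself without overlap in the same direction numbered 9 higher. Of the lower ones, the 15 with the largest difference on the weaker slide are described with them.

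Among the 9 higher genes, Hdac10 encodes a polyamine deacetylase of the histone deacetylase family. Its brighter probe (chr15:88951176-88951235 in the mm8 build of the files) was at 1.85 and 1.40 on the young arrays and at 2.94 and 2.66 on the climacteric arrays, a difference of 1.18 (SE 0.32, limma adjusted p = 0.696), and the other probe differed by 1.80. The climacteric values were above both young values by more than the replicates differed. Adam17, the protease that sheds growth factor precursors from the cell surface (probe at chr12:21571174-21571233), was at -1.16 and -0.69 on the young arrays and at 0.29 and 0.22 on the climacteric arrays, a difference of 1.18 (SE 0.31, limma adjusted p = 0.662), and its other probe differed by 0.95. Zbtb20, a zinc finger repressor (probe at chr16:43543169-43543228), was at -0.61 and 0.29 on the young arrays and at 1.35 and 1.06 on the climacteric arrays, a difference of 1.37 (SE 0.40, limma adjusted p = 0.729), and its other probe differed by 0.66.

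The remaining higher genes were Eya3, Gfm1, Rnf5, Igsf3, Vamp2 and Zfp772, with differences between 0.73 and 1.33. Eya3, a phosphatase and transcriptional cofactor, had other measured probes that differed by 1.18 and -0.63. Gfm1, the mitochondrial translation elongation factor G, differed by 0.73 and by 0.77 on its other probe. Rnf5, a ubiquitin ligase of the endoplasmic reticulum, was at 0.38 and 0.35 on the young arrays and at 1.21 and 1.04 on the climacteric arrays.

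The differences of the 15 lower genes ran from -3.29 to -0.90. All but Mia, Oxr1, Pdpn and Abracl were also at least 8-fold brighter in the mean of the ooplast arrays than in the blastocysts. That held for 8.75% of measured genes, and is described further below. Slc6a17, a neutral amino acid transporter (probe at chr3:107596128-107596187), was at 5.08 and 5.96 on the young arrays and at 3.72 and 3.49 on the climacteric arrays, a difference of -1.91 (SE 0.39, limma adjusted p = 0.509), and its other probe differed by -3.15. Fat3, an atypical cadherin, was at 4.64 and 5.44 on the young arrays and at 3.41 and 3.21 on the climacteric arrays, a difference of -1.73 (SE 0.37, limma adjusted p = 0.557), while its other probes differed by 0.12 and -3.00. Ndfip2, an adaptor of NEDD4 ubiquitin ligases (probe at chr14:104145378-104145437), was at 1.51 and 2.62 on the young arrays and at -0.02 and 0.28 on the climacteric arrays, and its other probes differed by -1.15 and -0.30. Arl6ip6 (probe at chr2:53014213-53014272) was at 3.63 and 6.04 on the young arrays and at 1.84 and 2.51 on the climacteric arrays, a difference of -2.66 (SE 0.82, limma adjusted p = 0.757). Its other probes, at -0.60 and -0.79, gave a smaller difference.

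Lower genes of moderate size included Pdpn, the membrane mucin podoplanin, at -0.78 and -0.82 on the young arrays and at -1.84 and -1.73 on the climacteric arrays with its other probe at a difference of -1.33. Oxr1, an oxidation resistance gene, was at -0.30 and -0.55 on the young arrays and at -1.46 and -2.04 on the climacteric arrays, a difference of -1.32 (SE 0.34, limma adjusted p = 0.636). Akap11, an anchor of protein kinase A, was at -1.45 and -1.72 on the young arrays and at -2.68 and -3.02 on the climacteric arrays. Pitpna, a phosphatidylinositol transfer protein, differed by -1.45 (SE 0.34, limma adjusted p = 0.568) on its brightest probe and by -0.17 on the other. Glb1l, Mia, Katnal2, Msi2, Stx3, Nkain4 and Abracl completed the group. The other measured probes of Stx3 differed by -1.63, 0.24 and 0.19. In Glb1l, Katnal2, Msi2 and Nkain4 the young replicates were farther apart than the group means.

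Some genes were well above background on both arrays of 1 age and on neither of the other, which gives only a bound. For these, the bright mean was set against a limit for each array of the dim age, the higher of its dimmest level called well above background and the value of the probe itself. There were 260 bounds higher and 15 lower in climacteric blastocysts, on arrays where more climacteric spots were above background. Aoc1, a diamine oxidase, was at -5.51 and -5.64 on the young arrays and at -0.97 and -2.18 on the climacteric arrays, and was at least 3.8-fold higher. Elapor1 was at least 4.86-fold higher, Mbl2, a mannose-binding lectin, at least 4.34-fold, and Teddm3 and Klhl35 at least 4.78-fold and 4.31-fold. In the other direction Tcta was at least 9.2-fold lower, S100g, a calcium-binding protein, at least 5.7-fold and Has2, the hyaluronan synthase of the expanding cumulus, at least 3.3-fold.

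Differences of at least 2-fold on both slides were found for 194 genes higher (1.22%) and 249 genes lower (1.56%) in climacteric blastocysts. Restricted to the 14282 measured genes, these were 51 higher (0.357%) and 202 lower (1.41%). Scaled on the detected probes the counts over all genes were 272 higher and 199 lower. With 1 array left out, which asks only for both remaining comparisons, they were 422 higher and 491 lower without young replicate 1, and 570 and 349 without young replicate 2. Leaving out climacteric replicate 1 gave 323 and 352, and leaving out climacteric replicate 2 gave 497 and 442. The 51 higher genes had a median difference of 1.42. They included Skp2, the F-box protein that targets p27 for degradation, at -0.86 and -0.84 on the young arrays and at 1.01 and 1.04 on the climacteric arrays, although its other probe differed by -0.49. Map1lc3a, an autophagosome protein, was at -2.41 and -2.24 on the young arrays and at -0.84 and -0.41 on the climacteric arrays. Fzd4 and Fzd9, Wnt receptors, differed by 2.27 and 1.62. Only 4 of the 51 genes had a second measured probe, and 1 of those 4 probes pointed the same way.

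The 202 lower genes stood out by their level in ooplasts, which the choice did not use. Of them 158 (78.2%) were at least 8-fold brighter in the mean of the ooplast arrays than in the blastocysts, against 1250 of 14282 measured genes (8.75%). This measure subtracts the mean of the blastocyst arrays, whose values chose the genes, so it is not wholly separate from the choice. Read the other way, 12.6% of the 1250 ooplast-bright genes were 2-fold lower and 0.48% 2-fold higher on both slides. The other 13032 genes gave 0.338% and 0.345%. This relation was seen in the data and then counted, so it carries no test. The share was 49.4% without young replicate 2 and 48.0% without climacteric replicate 2, where fewer comparisons chose the genes.

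The median level of the 202 genes was 7.91 in young ooplasts and 5.61 in climacteric ooplasts, against 0.14 and 0.22 for all measured genes. In blastocysts it was 2.43 and 4.18 on the young arrays and 0.85 and 0.76 on the climacteric arrays. The climacteric arrays were alike, while young replicate 2 was above young replicate 1 by a median of 1.09. In ooplasts 163 of the 202 (80.7%) were also at least 2-fold lower in the climacteric array, against 10.5% of measured genes, and 3 were 2-fold higher there, against 9.84%. All these ooplast values rest on 1 array per age.

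**Figure D4:**
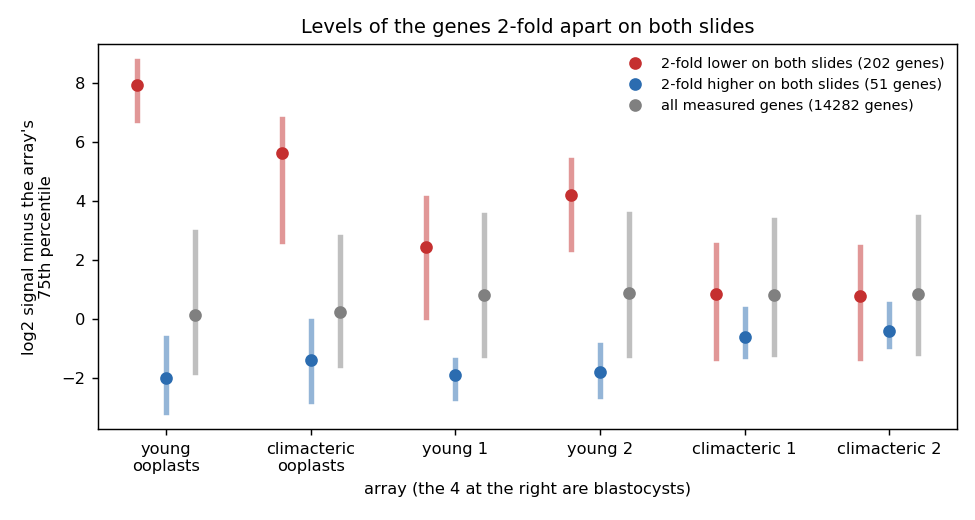
Median (point) and middle range from the 25th to the 75th percentile (bar) of scaled log2 signal (0 at each array's 75th percentile, vertical axis) on the 6 arrays (horizontal axis). Red is the 202 genes 2-fold lower on both slides, blue the 51 genes 2-fold higher and grey the 14282 measured genes. The red medians run from 7.91 in young ooplasts to 0.76 on climacteric replicate 2, while the grey medians stay between 0.14 and 0.86.

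E2f1, a transcription factor of the G1 to S transition, was one of these genes. It was at 2.86 and 3.62 on the young arrays and at 0.82 and 0.77 on the climacteric arrays, a difference of -2.45 (SE 0.36, limma adjusted p = 0.462), and at 7.62 in young ooplasts and 5.73 in climacteric ooplasts. Its other probe differed by -0.10. Col5a1, a collagen V chain, was at 2.80 and 3.87 on the young arrays and at 0.52 and 0.62 on the climacteric arrays, a difference of -2.76 (SE 0.43, limma adjusted p = 0.462), and its other probe differed by 0.39. In both genes the difference was thus seen on 1 probe and not on the other.

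Bbc3, the p53-induced cell death gene also called Puma, was at 3.89 and 4.93 on the young arrays and at 2.81 and 1.87 on the climacteric arrays, a difference of -2.07 (SE 0.51, limma adjusted p = 0.619), with 1 measured probe. Fzd5, a Wnt receptor, was at 0.11 and 4.13 on the young arrays and at -2.60 and -2.10 on the climacteric arrays, and at 8.57 in young ooplasts and 4.48 in climacteric ooplasts. Cpeb1, a regulator of stored oocyte messages, was at 4.96 and 5.70 on the young arrays and at 3.02 and 3.05 on the climacteric arrays, a difference of -2.29 (SE 0.36, limma adjusted p = 0.462). The ages did not overlap in any of the 3, which the choice of genes 2-fold lower on both slides made likely. Genes known from differentiated tissues were also present. Olig2, a factor of the oligodendrocyte lineage, was at 2.93 and 3.45 on the young arrays and at 1.18 and 0.75 on the climacteric arrays, and Cxcr2, a chemokine receptor of neutrophils, at 2.40 and 4.63 on the young arrays and at 0.99 and 0.96 on the climacteric arrays. Adipoq, the fat cell hormone adiponectin, was at -2.17 and 1.43 on the young arrays and at -3.30 and -2.22 on the climacteric arrays. Olfactory receptors made up 4 of the 202 genes and 273 of the 14282 measured genes, a similar share.

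Second probes of these genes were centred near 0. Of the 202 genes 39 had other measured probes, 49 in all, and the median difference of these was -0.05. Of the 49, 27 had the same sign and 6 were at least 2-fold lower. Over all measured genes 4519 second probes had a median of -0.02, and 101 of them were at least 2-fold higher. The number at least 2-fold lower over all genes was not counted, so the 6 of 49 have no matching share.

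Genes with known roles in the oocyte were looked at separately. Among the oocyte and maternal effect list, 14 genes were measured and at least 8-fold brighter in ooplasts, among them Gdf9, Zp3, Npm2, Padi6 and Tle6. None of the 14 was 2-fold lower or higher on both slides, 2 were higher and 2 lower without overlap, and their median difference was -0.11. Of all 1250 ooplast-bright genes 12.6% were 2-fold lower on both slides, and 14 genes are too few to tell none from that share. The 14 do not cover every gene with an oocyte role, since Cpeb1, described above as 2-fold lower on both slides, is not among them. Gdf9, the growth factor that oocytes send to cumulus cells, was at 0.91 and 0.47 on the young arrays and at 0.97 and 1.38 on the climacteric arrays, and at 10.89 in young ooplasts and 10.89 in climacteric ooplasts. Its ages did not overlap, but the gap between them was smaller than the spread within either age. Fbxw15, an oocyte F-box gene, was lowest with -0.98 (SE 0.67, limma adjusted p = 1).

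**Figure D5:**
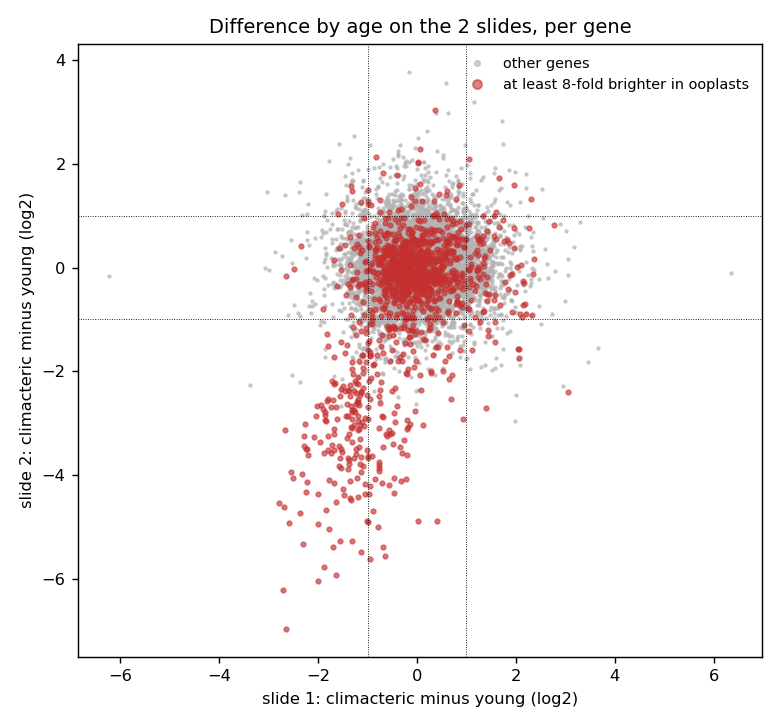
Difference of climacteric minus young (log2) on slide 1 (horizontal axis) and slide 2 (vertical axis), 1 point per measured gene. Red points are the 1250 genes at least 8-fold brighter in ooplasts, grey points the other 13032, and dotted lines mark 2-fold. A tail of red points extends to the lower left, where 158 of the 202 genes 2-fold lower on both slides are red, and reaches farther on slide 2 than on slide 1.

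No marker list of another cell type held a gene that passed the test. Of 19 cumulus and granulosa genes 12 were tested, and of these between 10 and 12 were well above background on each array. Their median difference was -0.06. Inha, the inhibin alpha chain, was at -1.53 and 1.44 on the young arrays and at -2.55 and -2.09 on the climacteric arrays, and belonged to the ooplast-bright genes, while Cyp19a1, the aromatase, differed by 0.03. Of 24 macrophage and leucocyte genes 12 were tested. Of these, 10 and 9 were above background on the young and 12 and 12 on the climacteric arrays, with a median difference of 0.18. Of 17 fibroblast and uterus genes 9 were tested. Of these, 7 and 8 were above background on the young and 9 and 9 on the climacteric arrays. The median difference was 0.69 among the 9 tested (0.58 on slide 1 and 0.32 on slide 2). It was 0.02 among the 6 measured on all arrays. These counts cover only tested genes, and 1499 genes entered the test through the climacteric arrays alone against 180 through the young. They therefore follow in part from the filter. The part of such cells in any result was not tested.

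The difference by age in blastocysts was set against that between the single ooplast arrays for the 10903 genes whose probe was above background by the same rule on all 6 arrays. With 1 ooplast array per age, a deviation of either array cannot be told apart from age, and limma took the spread from the blastocyst replicates alone. On that basis 131 genes (1.2%) had a higher and 2 genes (0.0183%) a lower difference by age in blastocysts than in ooplasts at an adjusted p of 0.05, and 690 (6.33%) had an unadjusted p below it. Of the 133 genes, 131 were at least 2-fold lower in the climacteric ooplast array and 131 lay within 2-fold in blastocysts. Their median difference was -5.68 in ooplasts and -0.14 in blastocysts. Without climacteric replicate 1 there were 84 such genes, and also 84 without climacteric replicate 2.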

How the data were processed

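Amplified, Cy3-labelled RNA of 6 samples was hybridised to single-colour Agilent arrays, per the labels' protocols. The deposited scanner files hold background-subtracted spot intensity on an mm8 design, per the file headers. The submitters' processing notes name Agilent Feature Extraction 9.5. A value table deposited by the authors gives log2 values, which matched a quantile normalization of these signals on the linear scale (largest difference 5e-07, each column's median 6.25), and was used as an alternative. Scale, centring and direction are therefore known.

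Non-control spots were scaled as log2 intensity minus the array's 75th percentile. Outlier spots were left out unless all spots of a probe were flagged, saturated spots (at most 13 on an array) were kept, and the brightest probe over the 4 blastocyst arrays stood for its gene. Of 41174 probes, 24375 were named by accession, 6301 by a current symbol and 2426 by a synonym in a RefSeq table, and 8072 kept the file's name. Tests used limma 3.58.1 in R 4.3.3 (lmFit, eBayes, two-sided, Benjamini-Hochberg, 2 residual and 3.23 prior degrees of freedom) and were tested on simulated data. The number of arrays limits the precision. The correlation of replicate deviations between the ages was 0.17 over 2 pairs, too few to show pairing.

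The comparison, the 32 lists, the 25 families and the rules were chosen with earlier results of these data known. Named genes were those past the adjusted threshold (none), up to 15 per direction with an unadjusted p below 0.05, no overlap and a second probe also without overlap in the same direction, up to 5 bounds per direction, the highest and lowest of each list and a fixed set of lineage and stress genes. Clone, predicted and accession names were passed over. Genes of the sets 2-fold apart on both slides, and list members named outside this rule, were chosen after their values were seen. Alternatives were other scalings, background correction, filters, probe choice, the slide as a block, fold limits and leaving out each array.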

Additional observations from a re-analysis of the deposited data

Results flagged for a closer look

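The difference by age in blastocysts departed from that between the single ooplast arrays for 133 genes at an adjusted p of 0.05 in limma. The blastocyst spread stood in for that of ooplasts, which have no replicate, so a deviation of 1 ooplast array cannot be told apart from age. Among the genes named in the report, 3 were of this kind. Rnf5 had a difference by age 6.19 log2 units higher in blastocysts than in ooplasts, Stx3 one 6.11 higher and Bcl2, the cell death inhibitor, one 6.61 higher. Bcl2 was at -1.18 and -1.20 in young and at -1.80 and -1.54 in climacteric blastocysts, and at 6.66 in young and -0.43 in climacteric ooplasts. Rnf5 was at 6.60 in young and 1.17 in climacteric ooplasts, and Stx3 at 7.56 and -0.13.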

How the results depend on the processing

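No gene passed an adjusted p of 0.05 under any alternative run. The lowest adjusted p was 0.0663 without young replicate 1 and 0.992 with normexp, and 623 to 1237 genes had an unadjusted p below 0.05. With the slide as a replicate block, 0 genes passed (lowest adjusted p 0.298), 1102 had an unadjusted p below 0.05, and no call changed. The fit to all 6 arrays equals that to 4, since single ooplast arrays add no residual. Genes 2-fold higher on both slides numbered 39 with normexp and 51 among genes measured on all 4 arrays. They numbered 595 at 1.5-fold and 70 at 3-fold, and 323 to 570 with 1 array left out. Genes 2-fold lower numbered 152 with normexp, 541 at 1.5-fold, 85 at 3-fold and 349 to 491 with 1 array left out. Crossed pairs gave 204 higher and 213 lower. Leaving out arrays here, and all alternatives for the ooplast share, were chosen after seeing the data. That share was 68.4% with the authors' deposited values and 48.0% to 64.8% with 1 array left out. Genes with all probes agreeing numbered 185 higher and 38 lower when scaled on detected probes. Genes whose blastocyst difference departed from that of the single ooplast arrays numbered 83 with the authors' deposited values and 84 to 179 with 1 array left out. Of 513 list medians recomputed, 158 moved by more than the standard deviation of the list's medians on the 2 slides. Of 1683 values of 121 named genes, 172 moved by more than the SE of the gene's difference. The cause of these changes was not tested. A gene near background has only a bound.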
